A study of Mus musculus with 2 samples.

Results

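The 10 genes described here encode 8 chemokines (Ccl2, Ccl5, Ccl7, Cxcl1, Cxcl5, Cxcl10, Cxcl12 and Cx3cl1), the cytokine interleukin-6 (Il6) and colony-stimulating factor 1 (Csf1). They were taken by gene symbol from a fixed list, and all 10 were found among 21829 genes. The list was chosen with earlier results of these data known. C2C12 is an immortalised line of mouse myoblasts, the proliferating precursors of skeletal muscle fibres. The WT library came from unedited C2C12 cells, and the KO-labelled library came from C2C12 cells in which Cas9 editing had placed an indel in the gene Gne, which encodes the enzyme that starts sialic acid synthesis. Both lines carry no further allele or treatment in the sample labels, both were grown in the same serum-containing medium, and edited lines were expanded from single cells, so that the KO line stands for 1 clone. RNA was sequenced from 1 library per line. A difference between them therefore has neither a replicate check nor a test, and an effect of Gne and a difference between clones cannot be told apart.

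Values are fragments per kilobase of transcript scaled to sequencing depth (FPKM), a unit that was inferred and is not named with the data, and a scale per length on which levels can be compared between genes. The number of reads is unknown. A gene listed at 0 may lack an estimate rather than RNA, since 2 of 79 ribosomal protein symbols, genes that every cell uses, were also listed at 0 in both libraries. A log2 fold change is log2((KO + 1)/(WT + 1)), which understates the change of low genes. Its median across the 10542 genes that averaged 1 FPKM or more over the libraries was 0.0061. A difference is called more than 2-fold where this log2 fold change is beyond 1 in either direction. A gene at a low level can thus differ by more than 2-fold in FPKM and not be called. Gne itself had 6.67 FPKM in WT against 7.34 FPKM in the KO-labelled library, so its RNA does not tell which library carries the edit. Of 9 myoblast markers, Des had 97.6 FPKM in WT against 3.84 FPKM in the KO-labelled library, and Cdh15 had 16.6 against 0.701 FPKM. Myod1 had 59.97 FPKM in WT and was listed at 0 in the KO-labelled library, and Pax7 was listed at 0 in both. Higher values in the KO-labelled library were those of Myf5, with 9.14 and 20.3 FPKM, and Vcam1, with 32.1 and 51.3 FPKM. The summed level of the 9 markers was 278 FPKM in WT against 118 FPKM in the KO-labelled library. How the lower level of some myoblast markers bears on the values below was not tested.

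Chemokines are small secreted proteins that guide migrating cells along gradients. They are named by the spacing of their first cysteines (CC, CXC or CX3C) and act on G protein-coupled receptors, which are found mostly on leukocytes. IL-6 signals through the receptor Il6ra and the shared subunit Il6st to the kinases of the JAK family and to STAT3, and it is also released by working muscle. CSF1 supports the survival of monocytes and macrophages through the receptor Csf1r. Myoblasts are known to secrete several of these factors, and in injured muscle such signals bring in neutrophils and monocytes before the fibres regenerate. Many of the genes are switched on through the transcription factor NF-kB, and Cxcl10 and Ccl5 also respond to interferons.

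The regulatory sequence in front of 6 members was looked up in RefSeq promoters of the build GRCm38.p6, as windows from 250 bases before to 50 bases after the start of the gene. The matched genes were Csf1, Il6, Cxcl1, Cxcl10, Cxcl12 and Cx3cl1. Ccl2, Ccl5, Ccl7 and Cxcl5 had no entry. The 250 bases before the start are shown for 4 genes whose values differed in kind: Cxcl10 was low in WT and higher in the KO-labelled library, Il6 was level, Cxcl1 was lower, and Cxcl12 was 2-fold higher. Capitals mark matches, on either strand, to the NF-kB consensus, to the core of the interferon response element, GAAANNGAA, to the gamma-activated site TTCNNNGAA, to the AP-1 site TGANTCA or to the TATA box TATAAA. Each sequence is written from 5′ to 3′ on the strand of the gene.
Cxcl10, chr5:92348890-92349139, minus strand: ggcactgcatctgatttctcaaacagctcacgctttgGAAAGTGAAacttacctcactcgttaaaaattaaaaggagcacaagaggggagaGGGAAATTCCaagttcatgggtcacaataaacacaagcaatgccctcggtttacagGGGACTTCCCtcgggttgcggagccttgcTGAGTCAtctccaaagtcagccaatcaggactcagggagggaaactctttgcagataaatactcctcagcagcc
Il6, chr5:30012864-30013113, plus strand: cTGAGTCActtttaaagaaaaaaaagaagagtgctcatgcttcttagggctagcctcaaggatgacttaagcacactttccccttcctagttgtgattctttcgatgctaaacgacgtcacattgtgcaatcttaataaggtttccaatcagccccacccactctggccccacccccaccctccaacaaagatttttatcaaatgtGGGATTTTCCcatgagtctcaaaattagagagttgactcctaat
Cxcl1, chr5:90890995-90891244, plus strand: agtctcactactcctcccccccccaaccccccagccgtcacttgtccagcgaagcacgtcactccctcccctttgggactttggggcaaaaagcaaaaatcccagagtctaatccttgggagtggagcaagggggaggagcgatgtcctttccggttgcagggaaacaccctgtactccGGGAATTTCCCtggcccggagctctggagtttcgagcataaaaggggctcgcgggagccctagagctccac
Cxcl12, chr6:117168285-117168534, plus strand: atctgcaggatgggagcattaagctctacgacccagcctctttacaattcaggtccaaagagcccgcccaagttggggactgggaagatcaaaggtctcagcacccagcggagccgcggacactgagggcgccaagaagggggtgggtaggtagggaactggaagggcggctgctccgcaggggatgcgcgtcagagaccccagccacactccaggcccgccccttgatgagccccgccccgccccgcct

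The Cxcl10 window held the interferon response core GAAAGTGAA, which begins 213 bases before the start. It also held NF-kB matches at 159 and 103 bases before the start and the AP-1 match TGAGTCA at 74 bases before it. In Il6 the NF-kB match GGGATTTTCC began 44 bases before the start and an AP-1 match 249 bases before it. The 2 capital NF-kB matches in Cxcl1 overlap on opposite strands and form 1 stretch, which begins 71 bases before the start. Csf1, not shown, held 1 NF-kB match, and Cx3cl1 held a TATAAA. The Cxcl12 window had no match to any of the 5 motifs. Among 32851 promoter windows of the same length, 4.51% held the NF-kB consensus and 8.56% held GAAANNGAA. The shares were 8.30% for TTCNNNGAA, 7.81% for TGANTCA and 13.6% for TATAAA. The consensus was thus found in 4 of 6 members, among which Cxcl10 was higher in the KO-labelled library and Il6, Cxcl1 and Csf1 differed by less than 2-fold. These matches describe letters in a window and not bound sites.

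The members spanned a wide range of levels. In the WT library the order from high to low was Cxcl5, Ccl7, Ccl2, Cxcl1, Csf1, Cxcl12, Cx3cl1, Il6, Ccl5 and Cxcl10. Cxcl5 stood at rank 118 of 21829 genes in that library, Ccl7 at rank 182, Ccl2 at rank 211 and Cxcl1 at rank 294, and Cxcl10 stood at rank 11362. In the KO-labelled library the order was Cxcl5, Ccl2, Ccl7, Cxcl1, Cxcl12, Csf1, Cx3cl1, Ccl5, Cxcl10 and Il6. The highest member had 2971 times the level of the lowest in WT and 463 times in the KO-labelled library. The ends of this range drew together mainly because the lowest members in WT were higher in the KO-labelled library. Without replicates it is unknown which neighbours in either order differ beyond their spread. In bulk RNA, fewer cells making a factor and less of its RNA per cell cannot be told apart.

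**Figure D1:**
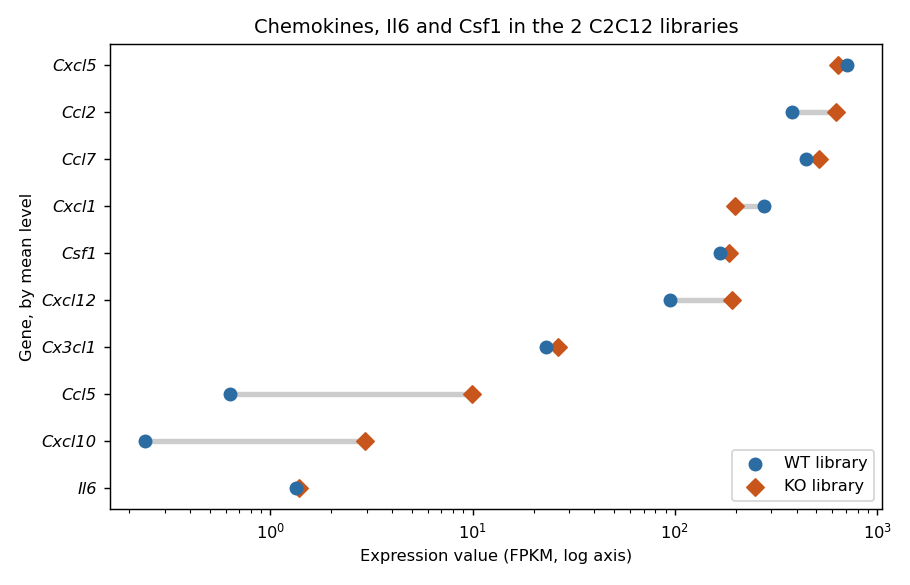
Values of the 10 members in the WT library (circles) and the KO-labelled library (diamonds), on a log axis of FPKM, with genes ordered by their mean. Ccl5 and Cxcl10 have the widest gaps, and Cxcl5 reaches 710.1 and 639 FPKM.

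A difference of more than 2-fold was found for 661 (6.27%) of these 10542 genes, upwards in the KO-labelled library for 299 (2.84%) and downwards for 362 (3.43%). Among the members 3 were more than 2-fold higher (Ccl5, Cxcl10 and Cxcl12) and 0 were more than 2-fold lower. Since the members were chosen with earlier results of these data known, the shares above are no test of this count. All 10 passed this limit of 1 FPKM, but Ccl5 and Cxcl10 were below 1 FPKM in WT and passed only through the KO-labelled library, so they had to differ. Cxcl12 lay at the threshold, as given below. The median log2 fold change of the members was 0.21, with 8 above 0 and 2 below, and that of all 10542 genes was 0.0061. The 8 include Ccl5 and Cxcl10, which had to differ, and Il6, which was level at 0.021.

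**Figure D2:**
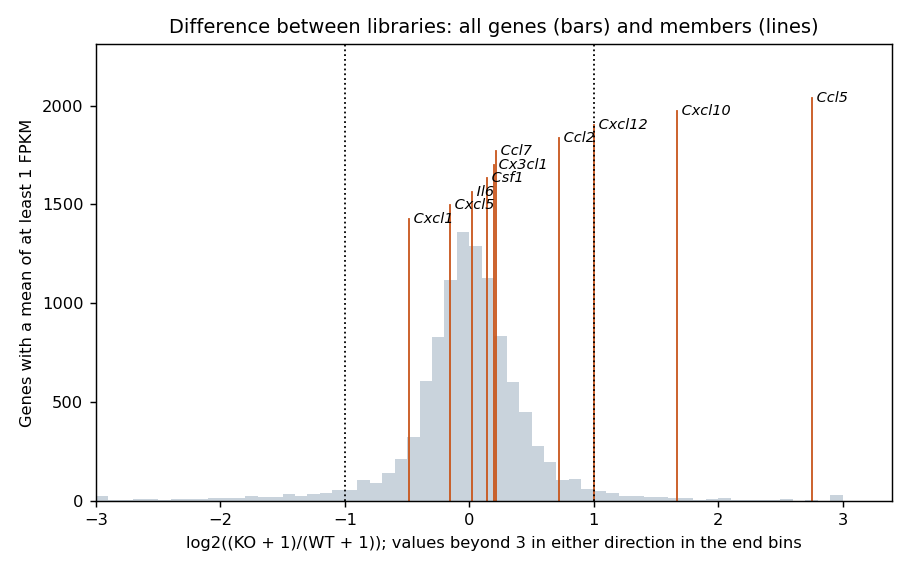
Distribution of the log2 fold change over 10542 genes (bars, number of genes per bin of log2((KO + 1)/(WT + 1))) with the 10 members as vertical lines and dotted lines at a 2-fold difference. Ccl5 and Cxcl10 lie to the right of the dotted line, Cxcl12 lies on it, and the other 7 members lie between both dotted lines.

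Ccl2 and Ccl7 attract monocytes, chiefly through the receptor Ccr2, and are neighbours on chromosome 11 (GRCm39, 81926397 to 81928279 and 81936532 to 81938351). Ccl2 had 380.0 FPKM in WT against 626 FPKM in the KO-labelled library, a ratio of 1.65 and a log2 fold change of 0.72. By absolute log2 fold change it stood at rank 1158 of the 10542 genes, below a 2-fold difference. Ccl7 had 445 FPKM in WT against 517 FPKM in the KO-labelled library, a log2 fold change of 0.22. The neighbouring pair thus differed unequally, and Ccl2 went from 0.854 to 1.21 times the level of Ccl7. Ccl8, another chemokine of the same cluster, had 10.9 and 17.1 FPKM. Ccl11 and Ccl12, which lie between Ccl7 and Ccl8, were under 1 FPKM in both libraries, and Ccl12 was listed at 0. The 5 genes of this cluster lie within 81.2 kb.

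Ccl5 attracts T cells and monocytes through receptors that include Ccr1 and Ccr3. It had 0.633 FPKM in WT against 9.98 FPKM in the KO-labelled library, a ratio of 15.8 and a log2 fold change of 2.75. By absolute log2 fold change it stood at rank 59 of the 10542 genes. It passed the filter only through the KO-labelled library, so it had to differ. The WT value rests on few fragments, an estimated 9 to 13, against 132 to 189 in the KO-labelled library. These estimates assume that the most frequent low value of genes with 1 transcript stands for 1 fragment, and they use the longest annotated transcript. Ccl5 lies on chromosome 11 (83416602 to 83425942, GRCm39) in a second CC cluster, next to Ccl9. Ccl9, a monocyte and dendritic cell attractant that is no member, had 1.51 and 9.12 FPKM, a log2 fold change of 2.01. In contrast, Ccl3 of the same cluster had 0.307 FPKM in WT against 0.216 FPKM in the KO-labelled library, and Ccl4 and Ccl6 were listed at 0 in both. None of the 81 genes past the filter within 5 Mb of Ccl5 had a higher log2 fold change, and their median was 0.072.

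Cxcl1 and Cxcl5 attract neutrophils through Cxcr2 and lie in 1 cluster on chromosome 5, within 146.6 kb. Cxcl5 (90907186 to 90909483, GRCm39) had 710.1 FPKM in WT against 639 FPKM in the KO-labelled library, a log2 fold change of -0.15. Cxcl1 (91039094 to 91040974) had 277 FPKM in WT against 198 FPKM in the KO-labelled library, a log2 fold change of -0.48. They were the only 2 members with a lower value in the KO-labelled library, and both remained among the most abundant RNAs there, at ranks 129 and 411. Cxcl2 and Cxcl3, close relatives of Cxcl1 in the same cluster, were far lower. Cxcl2 was listed at 0 in WT and had 0.026 FPKM in the KO-labelled library. The summed level of Cxcl1 and Cxcl5 was 987 FPKM in WT against 837 FPKM in the KO-labelled library, whereas that of Ccl2 and Ccl7 was 825 and 1143 FPKM. As shares of the 8 chemokines, the neutrophil-attracting pair made up 51.1% in WT and 37.9% in the KO-labelled library, and the monocyte-attracting pair made up 42.7% and 51.7%. The order of these 2 sums therefore differed between the libraries.

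Cxcl10 attracts activated T cells through Cxcr3 and is a classic interferon-induced chemokine. It had 0.239 FPKM in WT against 2.93 FPKM in the KO-labelled library, a ratio of 12.3 and a log2 fold change of 1.67. It was the lowest member in WT, at an estimated 15 to 16 fragments, and had an estimated 168 to 185 in the KO-labelled library. These ranges hold for the longest annotated transcript, of 2230 bases, and do not cover the choice of transcript. The shortest has 344 bases and would give fewer fragments in both libraries. Cxcl10 lies on chromosome 5 (92494497 to 92496748, GRCm39), apart from Cxcl1 and Cxcl5. Cxcl9, its neighbour and another ligand of Cxcr3, was listed at 0 in both libraries. The median log2 fold change of 30 genes within 5 Mb of Cxcl10 was -0.11, and none had a higher value than Cxcl10. Cxcl10 passed the filter only through the KO-labelled library, so it had to differ. With a pseudocount of 5 in place of 1, its log2 fold change was 0.60, below a 2-fold difference.

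Cxcl12 guides muscle progenitors and blood stem cells through Cxcr4 and is taken up by the scavenging receptor Ackr3. It had 94.6 FPKM in WT against 191 FPKM in the KO-labelled library, a ratio of 2.01 and a log2 fold change of 1.003. Scaling of the libraries by the median of ratios gave 0.996, so Cxcl12 is 2-fold higher in size and on no firm side of the threshold. None of its 59 neighbours on chromosome 6 had a higher log2 fold change, and their median was 0.020. Both of its receptors were lower. Cxcr4 had 29.5 FPKM in WT against 4.37 FPKM in the KO-labelled library, a log2 fold change of -2.51. Ackr3 had 6.78 and 1.81 FPKM, a log2 fold change of -1.47. Ligand and receptors thus differed in opposite directions, and Cxcl12 went from 3.21 to 43.7 times the level of Cxcr4. Cxcr4 is also a receptor of myoblasts. Beyond 2-fold, 3 of the 7 myoblast markers past the filter had a lower value in the same library, against 3.43% of all genes. A higher value was found for 1 of the 7, against 2.84% of all genes. The part of these markers in the difference of Cxcr4 was not tested.

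**Figure D3:**
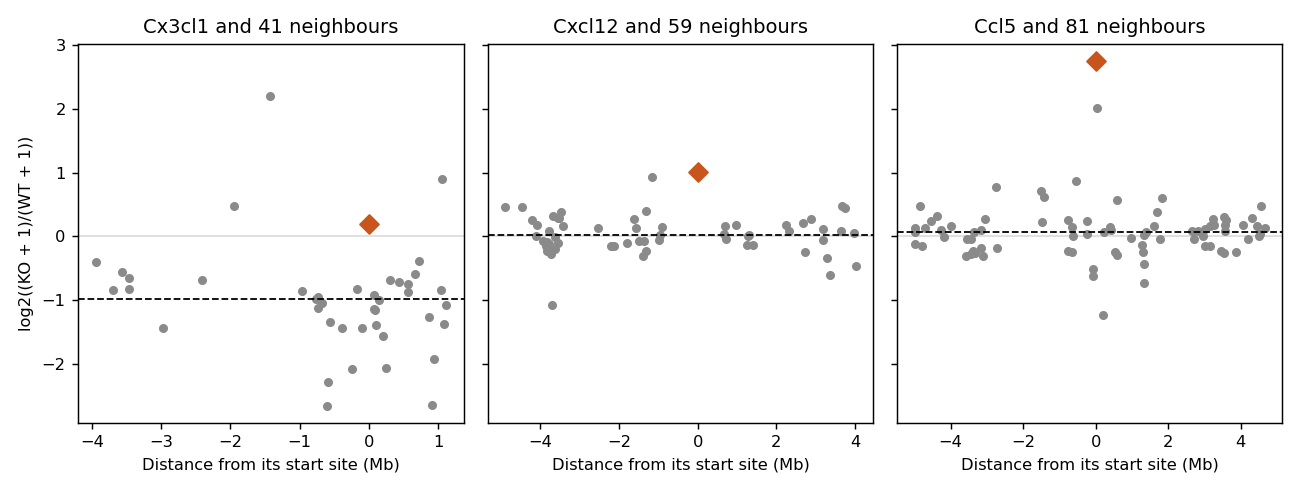
log2((KO + 1)/(WT + 1)) of Cx3cl1, Cxcl12 and Ccl5 (diamonds) and of the genes past the filter within 5 Mb (grey points), by distance from the start site of the member in Mb. Dashed lines mark the median of the neighbours, at -0.99, 0.020 and 0.072.

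Cx3cl1 is made as a membrane-bound chemokine on a mucin stalk and is shed by the proteases Adam10 and Adam17. It had 23.0 FPKM in WT against 26.5 FPKM in the KO-labelled library, a log2 fold change of 0.19. Its place in the genome sets it apart, since it lies on chromosome 8 (95498637 to 95509055, GRCm39) among genes that were lower in the KO-labelled library. Of 41 genes past the filter within 5 Mb, 38 had a log2 fold change below 0. More than 2-fold lower were 20 of the 41, against 3.43% of all genes past the filter, and the median was -0.99. Relative to that median Cx3cl1 was higher by 1.18 on the log2 scale, and by 1.33 relative to the 28 genes within 1 Mb, whose median was -1.14. After this subtraction 5.23% of 10170 genes were more than 2-fold different, and 2.62% were higher by that much. With Cx3cl1 the latter included Ccl5 at 2.68 and Cxcl10 at 1.78 but not Cxcl12 at 0.98. Ccl5 and Cxcl10 passed the filter only through the KO-labelled library, so they had to differ. Only 3 of the 41 neighbours had a higher log2 fold change than Cx3cl1. Ccl17, a chemokine next to Cx3cl1 that was chosen after its values were seen, had 0.249 and 1.045 FPKM, and Ccl22, on its other side, was listed at 0 in both libraries. Adam10 had 29.2 and 38.2 FPKM, and Adam17 had 22.3 and 19.5 FPKM.

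Il6 was low and level. It had 1.345 FPKM in WT against 1.38 FPKM in the KO-labelled library, a log2 fold change of 0.021, on an estimated 88 to 96 and 85 to 93 fragments. Its receptor genes were present at higher levels: Il6ra had 3.885 FPKM in WT against 4.35 FPKM in the KO-labelled library, and Il6st had 30.1 and 41.8 FPKM. Il6 lies on chromosome 5, and the median of 73 neighbours was -0.044. Csf1 was abundant and level as well. It had 167 FPKM in WT against 185 FPKM in the KO-labelled library, a log2 fold change of 0.15, on chromosome 3 with a neighbour median of 0.019. Il34, the other ligand of Csf1r, had 2.68 and 7.095 FPKM, a log2 fold change of 1.14, and stayed far below Csf1 in both libraries.

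The receptors that answer most members had values near 0 or were listed at 0, which here does not show that their RNA was absent. Ccr2, Cxcr2 and Cxcr3 were listed at 0 in both libraries. Ccr1 and Ccr3 had at most 0.015 FPKM in either library. Cx3cr1 had 0.105 and 0.112 FPKM, and Csf1r had 0.054 and 0.078 FPKM. Of 23 chemokine receptors, 3 had a mean of at least 1 FPKM, namely Cxcr4, Ackr3 and Cxcr6, the receptor of Cxcl16, which had 1.35 and 2.77 FPKM. Of these 3, 0 were higher and 2 were lower by more than 2-fold, against 2.84% and 3.43% of all genes past the filter. Cxcr6 had a ratio of 2.05 in FPKM but a log2 fold change of 0.68. Cxcl12 and Il6 were the members whose receptor genes were also measured above 1 FPKM.

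**Figure D4:**
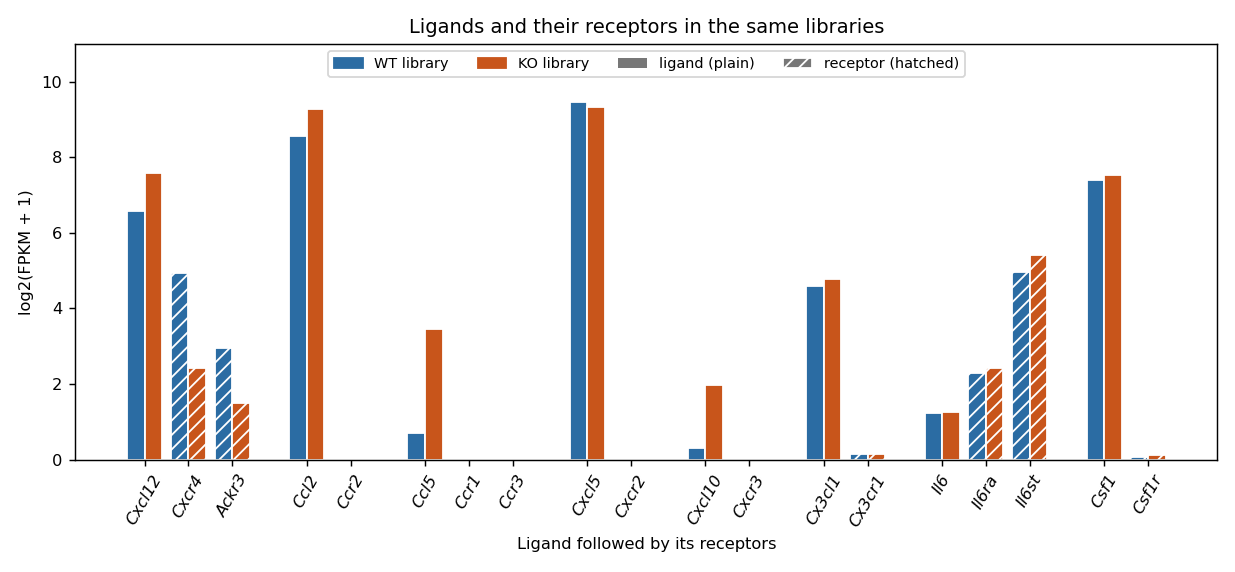
log2(FPKM + 1) of ligands (plain bars) and of their receptors (hatched bars) in the WT library (blue) and the KO-labelled library (orange). Cxcr4 and Ackr3 are lower in the KO-labelled library while Cxcl12 is higher, and the receptors drawn for Ccl2, Ccl5, Cxcl5 and Cxcl10 are listed at or near 0.

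Markers of other cell types that could make or answer these factors were compared. Of 12 macrophage and leukocyte markers, 7 were listed at 0 in both libraries, among them the defining genes Ptprc, Adgre1 and Itgam. Their summed level was 22.7 FPKM in WT against 20.0 FPKM in the KO-labelled library, nearly all of it from Cd14, with 19.6 and 18.4 FPKM, and Cd68, with 2.85 and 1.06 FPKM. The 6 endothelial markers summed to 0.010 and 0.080 FPKM. Of 6 fibroblast and fibro-adipogenic markers, 2 were listed at 0 in both, and the sum was 345 FPKM in WT against 171 FPKM in the KO-labelled library. Cd34, at 136 and 10.6 FPKM, and Ly6a, at 198 and 146 FPKM, carried most of it. Pdgfra, with 10.8 and 12.3 FPKM, and Dcn, with 0.272 and 1.68 FPKM, were higher in the KO-labelled library.

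The chemokines outside the list were few and low. Of 29 other chemokine symbols chosen for comparison, 4 had a mean of at least 1 FPKM, all with a higher value in the KO-labelled library. Of the 29, 16 were listed at 0 in both. Of the 4, 1 (Ccl9) was more than 2-fold higher, against 2.84% of all genes past the filter. The others were Ccl8, Ccl25, with 1.15 and 2.47 FPKM, and Ppbp, with 1.31 and 1.54 FPKM. Ccl25 had a ratio of 2.14 in FPKM but a log2 fold change of 0.69. All chemokine symbols in the data, including some outside both sets, numbered 39, of which 12 passed the filter and 18 were listed at 0 in both. Over these 39, the 6 with the highest mean were members, in the order Cxcl5, Ccl2, Ccl7, Cxcl1, Cxcl12 and Cx3cl1.

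Among genes that carry the NF-kB signal, 0 of 21 past the filter were more than 2-fold different in either direction, against 6.27% of all genes. With so few genes, 0 lies near that share. The median log2 fold change of the 21 was -0.10. Nfkbia, the inhibitor that NF-kB induces, had 52.7 FPKM in WT against 41.9 FPKM in the KO-labelled library, and the subunit gene Nfkb1 had 40.6 and 35.3 FPKM. The largest values were those of Nfkbie, at a log2 fold change of 0.90, Il1r1, the receptor of interleukin-1, at 0.82, and Tnfaip3, a feedback inhibitor, at 0.80. Nfkbie had 2.92 and 6.32 FPKM, a ratio of 2.17, and Tnfaip3 had 2.36 and 4.85 FPKM, a ratio of 2.06. Both ratios pass 2-fold in FPKM but not after 1 is added to each value. Tnf, Il1a and Il1b, cytokines that activate this pathway, were at most at 0.101 FPKM in either of the 2 libraries. Of 5 other NF-kB targets past the filter, 1 was higher and 1 lower by more than 2-fold, against 2.84% and 3.43% of all genes past the filter. C3, a complement component, had 0.669 and 4.20 FPKM and passed the filter only through the KO-labelled library, so it had to differ. In contrast, Saa3, an acute-phase protein, had 4.57 and 1.74 FPKM. Ptgs2, which encodes the prostaglandin synthase COX-2, had 59.7 and 51.9 FPKM. Of the 21 pathway components, 9 had a log2 fold change above 0 and 12 below.

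The interferon response list had 11 genes past the filter. By more than 2-fold, 2 were higher, against 2.84% of all genes past the filter, and 0 were lower, against 3.43%, with a median log2 fold change of 0.46. Isg15, a ubiquitin-like protein, had 1.08 FPKM in WT against 5.30 FPKM in the KO-labelled library, a log2 fold change of 1.60. Ddx58, a sensor of viral RNA, had 1.60 and 4.44 FPKM. Irf3 was lower, with 18.8 and 14.7 FPKM, and so was Ifnar1, with 20.4 and 15.1 FPKM. Ifnb1 was listed at 0 in both. Isg15 and Ddx58 were thus higher in the same library as Cxcl10 and Ccl5, and a link between them was not tested.

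The IL-6 family was mixed. Of 10 genes past the filter, 1 was higher and 3 were lower by more than 2-fold, beside the 2.84% and 3.43% of all genes, with a median of -0.16. Among the lower ones were the ligands Ctf1, with 15.2 and 3.34 FPKM, and Clcf1, with 37.1 and 13.8 FPKM. Lifr, a receptor chain that pairs with Il6st, had 4.48 and 10.5 FPKM. Of 13 genes of JAK-STAT3 signalling 1 was more than 2-fold lower, and their median was 0.037. That gene was Junb, with 282 and 98.2 FPKM. Its log2 fold change of -1.51 stood beside a median of -1.46 for its neighbours on chromosome 8. Of the colony-stimulating factors and their receptors other than Csf1, Il34 and Csf2rb had a mean of at least 1 FPKM. Csf2rb had 2.19 and 7.25 FPKM. Il34 and Csf2rb were both more than 2-fold higher, against 2.84% of all genes past the filter.

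**Figure D5:**
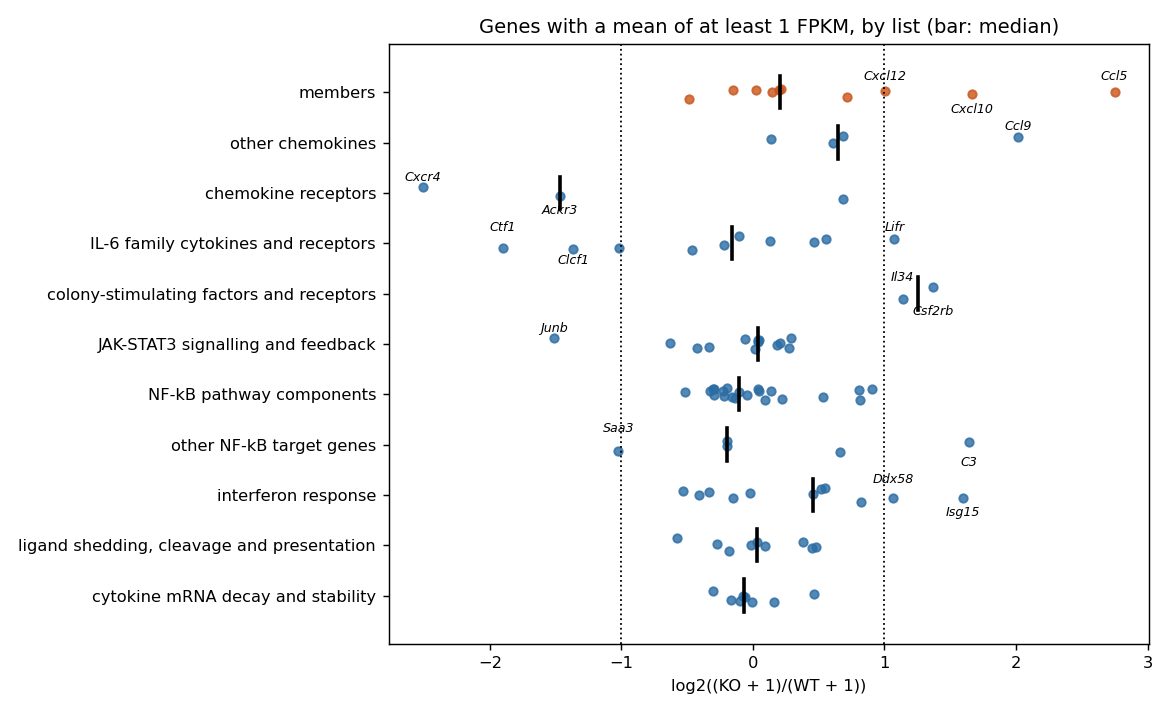
log2((KO + 1)/(WT + 1)) of each gene past the 1 FPKM limit, by list (points), with the median of the list as a black bar and dotted lines at a 2-fold difference. Most genes beyond the dotted lines are named, and the NF-kB pathway components all lie between them.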

How the data were processed

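RNA of 1 WT and 1 KO C2C12 library was analysed. The authors deposited 1 value per gene symbol, taken here as FPKM, inferred from column totals that differ between libraries, and a TPM table restricted to these genes would look alike. The submitters' processing notes name Trim Galore 0.6.6, STAR 2.7.9a, RSEM 1.3.3 and the build GRCm38, whereas the methods name GRCm39. Library kit and read length also differ between labels and methods. Symbols occurred again in 24 of 21853 rows, where the row of the larger mean was used. No count model was used and no P value was computed. Gene positions came from GENCODE vM39 (GRCm39), matched by symbol for 10171 of 10542 genes, and neighbours are genes past the filter whose start lies within 5 Mb.

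The members and gene lists were chosen with earlier results of these data known. Named were all members, their receptors, Gne and, per list, the 3 genes with the highest mean and the 4 with the largest absolute log2 fold change past the filter. Some genes that this rule takes are not reported here. Other genes were named after their values were seen. The estimate of fragments used a fragment length of 200 bases and genes with 1 transcript of at least 1000 bases, settings chosen after the values were seen. The procedure was run on simulated data, with changes well beyond 2-fold planted in genes of at least 5 FPKM in WT. That run does not cover lower genes such as Ccl5 and Cxcl10, or differences near 2-fold such as that of Cxcl12. Alternatives were pseudocounts of 0.1 and 5, median of ratios scaling, no filter, a limit of 5 FPKM and subtraction of the neighbour median. Python 3.11.15, numpy 2.4.6 and pandas 2.3.3 were used.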

Additional observations from a re-analysis of the deposited data

How the results depend on the processing

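With 1 library in each line no replicate could be left out. No paired analysis was possible because there is 1 library per line and no test. Counts are called moved beyond 1.5 times, and a log2 fold change or a median beyond the interquartile range of all genes, 0.44. Of 221 alternative values 190 stayed within these limits, 31 moved, and no called member changed sign. A change of pseudocount or filter cannot change a sign, so only scaling and neighbour subtraction could have done so. Some of the values that stayed were counts of 0 in both settings. With a pseudocount of 5 the members more than 2-fold higher were 1 (Ccl5, at 1.41) in place of 3, and with median of ratios scaling or a filter of 5 FPKM they were 2. With a pseudocount of 0.1 Ccl5 was at 3.78 and Cxcl10 at 3.16. Over all genes, 102 were higher and 176 lower with a pseudocount of 5, and the filter of 5 FPKM, under which fewer genes are left, gave 145 and 221.

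In the main setting the median was -1.47 for 3 chemokine receptors, 1.25 for 2 genes of the colony-stimulating factors and 0.65 for 4 other chemokines. With a pseudocount of 5, the receptor median was -0.79 with 1 gene lower, and that of colony-stimulating factors was 0.71. Also 0 genes were then more than 2-fold higher in the IL-6 family, the colony-stimulating factors and the interferon response. Among the other NF-kB targets 0 were higher and 0 lower. With a pseudocount of 0.1, 2 other chemokines and 2 NF-kB pathway components were more than 2-fold higher. Without a filter, which adds genes near 0, the medians of other chemokines, receptors and colony-stimulating factors were 0. The filter of 5 FPKM gave a median of 1.31 for other chemokines, -2.51 for receptors (1 gene lower) and -0.020 for the interferon response, with 0 genes higher there and 0 higher and 0 lower among other NF-kB targets. The number of reads limits Ccl5 and Cxcl10 most, through their low WT values.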

Other observations

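Genes that act on the members after transcription formed 2 further lists. Of 8 genes of cytokine mRNA decay and stability 0 were more than 2-fold different, against 6.27% of all genes past the filter, so that 0 of so few genes lies near that share. The median log2 fold change was -0.069. Zfp36l2, which speeds the decay of mRNAs with AU-rich elements, had 247 FPKM in WT against 200.4 FPKM in the KO-labelled library. Zc3h12a, a nuclease that cleaves Il6 mRNA, had 15.5 and 21.8 FPKM, the largest difference of this list at a log2 fold change of 0.46. Of 9 genes of ligand shedding, cleavage and presentation past the filter 0 were likewise more than 2-fold different, with a median of 0.029. Mmp14, a membrane-anchored matrix protease, had 228 and 226 FPKM. The heparan sulphate proteoglycans Gpc1 and Sdc4, which can hold chemokines at the cell surface, had 196 and 268 FPKM and 120.0 and 80.3 FPKM. Mmp2, a protease known to cleave Ccl7 and Cxcl12, had 40.3 and 56.6 FPKM, while its neighbours on chromosome 8 had a median log2 fold change of -0.96. Like Cx3cl1, Mmp2 was therefore higher in the KO-labelled library among neighbours that were lower. Mmp2 lies at -1.94 Mb from the start site of Cx3cl1 and is among its 41 neighbours. The neighbours of both genes overlap, so this is not a separate region.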
